A study of Mus musculus with 4 samples.

Results

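The 10 genes described here are core parts of the circadian clock: the repressors Per1, Per2, Per3, Cry1 and Cry2, the activators Arntl (also called Bmal1) and Clock, the nuclear receptor Nr1d1, the output factor Dbp and the repressor Bhlhe40. They were taken as every probe set of the array annotated to one of these symbols and to no other, which gave 22 probe sets of the 34945 that carry a single symbol, or 10 genes of 18193. Per3 had 6 probe sets, Clock 4, Per2 3, Arntl and Dbp 2 each, and Per1, Cry1, Cry2, Nr1d1 and Bhlhe40 1 each, and all were kept apart. Tissue was punched from the prelimbic area, in the medial prefrontal cortex, and all mice were male and aged 90 days after birth. The comparison set 2 arrays of mice exposed to fluoxetine, a selective serotonin reuptake inhibitor, before birth against 2 arrays of untreated mice. RNA levels were read on Affymetrix arrays, where a probe set is a group of short probes for a transcript, and values are log2 intensities, so differences are on the log2 scale. All 4 arrays share sex, age and tissue, and the submitters describe the arrays of a group as biological duplicates. The labels give no strain, dose or days of treatment, and are silent on pooling of animals. Nor do they give the hour at which the tissue was taken, and many transcripts of the clock change with the hour.

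In mammalian cells the CLOCK and BMAL1 proteins bind E-box motifs as a pair and drive transcription of the Per and Cry genes, whose products return to the nucleus and inhibit the pair. A second loop joins this one: REV-ERB receptors, encoded by Nr1d1 and Nr1d2, repress Arntl through RORE motifs that ROR receptors activate. Outputs such as DBP, a PAR bZIP factor that binds D-box motifs, carry the rhythm to other genes. BHLHE40, also called DEC1, competes for E-boxes and is induced by many stimuli. Per1, and in many cell types Per2, also respond to cyclic AMP and calcium through CREB and to glucocorticoids, so they belong both to the clock and to acute responses. In the rodent cortex Per transcripts follow the daily cycle.

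The promoters of 8 of the 10 genes, in 12 windows, were present in the RefSeq table of build GRCm38.p6, each running from 250 bases before to 50 bases after an annotated start site. Those of Per2 and Bhlhe40 were not analysed here. The windows of Per1 and Cry1 are shown because both transcripts were higher with fluoxetine, and those of Per3 and Arntl because theirs did not pass the test. Capitals mark matches, on either strand, to the E-box CACGTG, the D-box TTATGTAA or TTATGCAA, the RORE core AGGTCA and the short cAMP response element TGACG. Windows of minus-strand genes are written along the gene. The upstream Per1 window lies at chr11:69098699-69098998 on the plus strand, Cry1 at chr10:85185005-85185304 on the minus strand, Per3 at chr4:151044616-151044915 on the minus strand and the downstream Arntl window at chr7:113207261-113207560 on the plus strand.
Per1: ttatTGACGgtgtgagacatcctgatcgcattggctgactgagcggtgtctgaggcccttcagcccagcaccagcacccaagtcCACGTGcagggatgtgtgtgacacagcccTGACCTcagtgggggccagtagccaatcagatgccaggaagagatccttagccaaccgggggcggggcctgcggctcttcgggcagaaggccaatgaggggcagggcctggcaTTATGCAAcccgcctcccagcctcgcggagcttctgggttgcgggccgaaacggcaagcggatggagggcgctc
Cry1: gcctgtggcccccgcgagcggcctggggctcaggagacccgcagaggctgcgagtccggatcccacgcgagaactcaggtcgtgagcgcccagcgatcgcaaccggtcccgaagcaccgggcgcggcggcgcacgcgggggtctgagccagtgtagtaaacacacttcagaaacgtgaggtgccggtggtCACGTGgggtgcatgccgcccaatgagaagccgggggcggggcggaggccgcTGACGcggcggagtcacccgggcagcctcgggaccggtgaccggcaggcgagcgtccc
Per3: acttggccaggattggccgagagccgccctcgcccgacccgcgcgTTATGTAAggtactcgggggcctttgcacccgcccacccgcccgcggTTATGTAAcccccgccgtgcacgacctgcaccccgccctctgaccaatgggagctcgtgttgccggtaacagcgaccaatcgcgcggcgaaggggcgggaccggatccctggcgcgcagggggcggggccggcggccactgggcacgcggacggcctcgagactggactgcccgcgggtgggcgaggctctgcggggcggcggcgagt
Arntl: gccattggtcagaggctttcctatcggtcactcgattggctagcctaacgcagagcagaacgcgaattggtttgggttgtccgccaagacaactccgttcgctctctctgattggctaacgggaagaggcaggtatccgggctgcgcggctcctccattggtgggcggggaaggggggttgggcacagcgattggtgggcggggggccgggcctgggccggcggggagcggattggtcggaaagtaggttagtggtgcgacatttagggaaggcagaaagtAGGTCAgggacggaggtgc

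An E-box lay in the upstream Per1 window, 166 bases before the start site, and in the Cry1 window, 60 bases before it. Over all 32851 windows of the table, 7.15% held this motif. Per3 carried a pair of TTATGTAA D-boxes, 205 and 158 bases before its start, and Per1 a TTATGCAA D-box 24 bases before. These letters were rarer, in 0.938% and 0.743% of all windows. The RORE core was found in the upstream Per1 window, in the downstream Arntl window and in 1 of the 3 Clock windows, and 16.3% of all windows held it. The short element TGACG, present in 20.8% of all windows, occurred in both Per1 windows and in those of Cry1 and Cry2. The full cAMP response element TGACGTCA, which contains the short element, and the short glucocorticoid response element AGAACA had 0 matches in the 12 windows, against 1.79% and 19.0% of all windows. The Nr1d1 and Dbp windows held none of the motifs searched. A match describes the letters of a window, not a bound site.

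**Figure D1:**
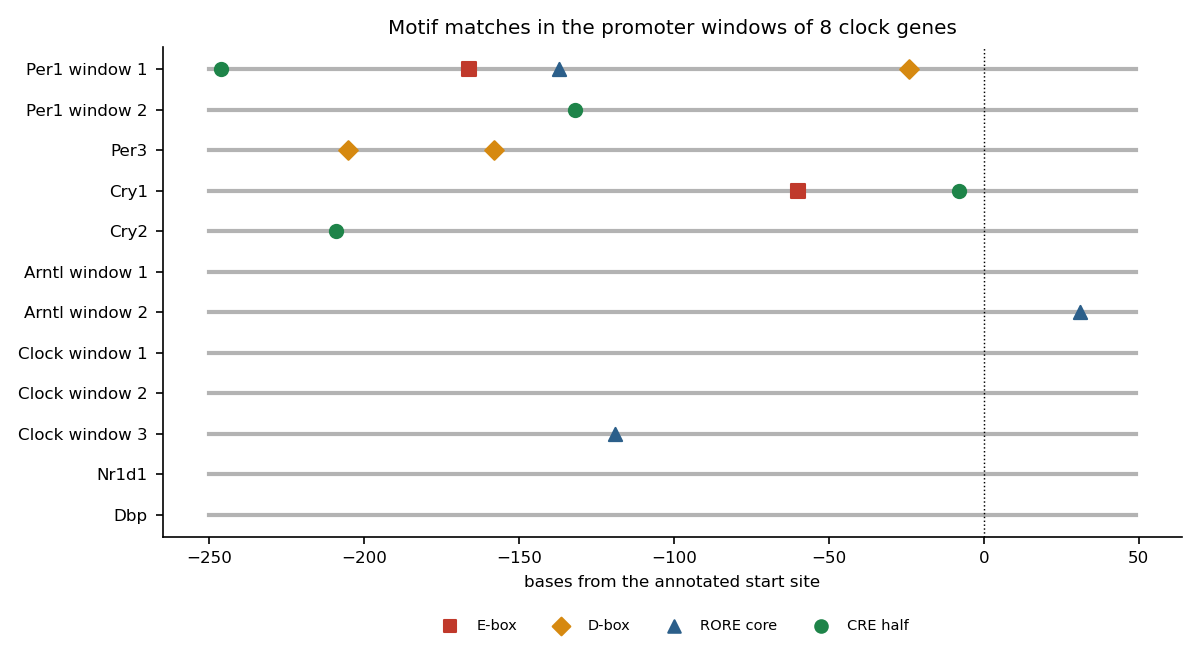
Motif matches in the 12 promoter windows of 8 clock genes, by distance in bases from the annotated start site (dotted line). Grey lines are the windows and symbols the matches, with E-boxes in Per1 and Cry1 and the pair of D-boxes in Per3.

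Before the results, some facts about the arrays bear on them. Striatal transcripts, from a region adjoining the punched cortex, stood apart on untreated replicate 2: 12 of 14 probe sets of 6 striatal neuron genes were highest there, as were 13 of 18 of oligodendrocyte genes. The striatal log2 intensities summed to 97.1 and 100.4 on the fluoxetine arrays, against 99.5 and 111.6 on the untreated arrays. Ttr, a choroid plexus transcript, stood apart on fluoxetine replicate 1, where 5 of 6 choroid plexus probe sets were highest. Its probe set 1455913_x_at read 10.55 and 6.48 on the fluoxetine arrays and 3.98 and 7.46 on the untreated arrays, while the choroid plexus genes Folr1 and Kcne2 averaged 4.98 and 1.72. Over all probe sets, 6.4% were higher with fluoxetine at an unadjusted p below 0.05 and 3.04% lower. Astrocyte markers were higher in 8 of 20 probe sets and lower in 0. Their summed log2 intensities were 177.9 and 179.2 on the fluoxetine arrays, against 175.6 and 176.8 on the untreated arrays. All of these calls were in Gja1, Slc1a3 and Aqp4. The Gfap probe sets differed by −0.02, −0.15 and −0.13, and those of Aldh1l1 by 0.003 and 0.02. The brightest sets differed by 0.03 for Gja1, 0.07 for Aqp4 and 0.21 for Slc1a3, and only the last passed. Markers of cortical excitatory neurons were higher in 2 of 10 probe sets and lower in 0, with summed log2 intensities of 104.8 and 104.3 on the fluoxetine arrays and 103.8 and 103.8 on the untreated arrays. Of the other lists, interneuron markers had 2 of 11 probe sets higher and 1 lower, oligodendrocyte markers 2 of 18 higher and 2 lower, microglia markers 1 of 7 higher and 1 lower, and endothelial markers 1 of 6 higher and 0 lower. In bulk tissue, fewer cells of a type and less RNA per cell cannot be told apart.

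The other fact concerns labelling. The poly-A transcripts that are spiked into RNA before labelling were higher on the fluoxetine arrays in 24 of 24 probe sets, by a median of 0.24. These probe sets read a few spiked RNAs repeatedly. The median was 0.28 at their 5′ ends, 0.29 in the middle and 0.17 at their 3′ ends, over 8 probe sets each. Their 3′ minus 5′ signal was lower on both fluoxetine arrays for DapX, LysX, PheX, Bs-dap and Bs-phe. For ThrX, Bs-lys and Bs-thr the groups overlapped. Spikes added at hybridization differed by a median of 0.05 over 18 probe sets. The 3′ minus 5′ signal of beta-actin was 0.41 and 0.40 on the fluoxetine arrays, against 0.49 and 0.50 on the untreated arrays, and that of Gapdh was −0.32 and −0.29 against −0.29 and −0.23. In the transferrin receptor and pyruvate carboxylase controls it ran the other way, with mean differences of 0.15 and 0.14 and groups that overlapped. Among 4418 genes with several probe sets above the median level, the brightest probe set was higher with fluoxetine at an unadjusted p below 0.05 in 7.02%, and the 6847 dimmer ones in 18.1%. Which end of a transcript a probe set reads is not in the annotation used here. The part of labelling, and of the cell types named above, in the clock results was not tested.

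In the limma fit over all 34945 probe sets, 5 of the 22 clock gene probe sets were higher with fluoxetine at an unadjusted p below 0.05, where 6.4% of all probe sets were, and 0 were lower, where 3.04% were. The 5 belonged to Per2 (2 probe sets), Bhlhe40, Cry1 and Per1. The other 17 did not pass in either direction. After Benjamini-Hochberg adjustment over all probe sets 0 clock gene probe sets passed, and the lowest adjusted p among them was 0.322. On the whole array 1 probe set, or 0.00286%, had an adjusted p below 0.05, and it reads Homer1, a gene named after its values were seen. Both fluoxetine arrays lay above both untreated arrays in 7 of the 22 (19.9% of all probe sets) and below them in 3 (20% of all). The median log2 difference, fluoxetine minus untreated, was 0.04 over the 22 and −0.01 over all probe sets. By role, 4 of the 12 probe sets of the PER and CRY repressors were higher, with a median difference of 0.05, and 0 of the 6 of the activators, with a median of −0.05. Among probe sets above the median level, 4 of 14 clock gene probe sets were higher, and 10.04% of all. An exact permutation test of 2 arrays against 2 cannot give a two-sided p below 0.333, so the p-values here rest on the variance that limma shares between probe sets.

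**Figure D2:**
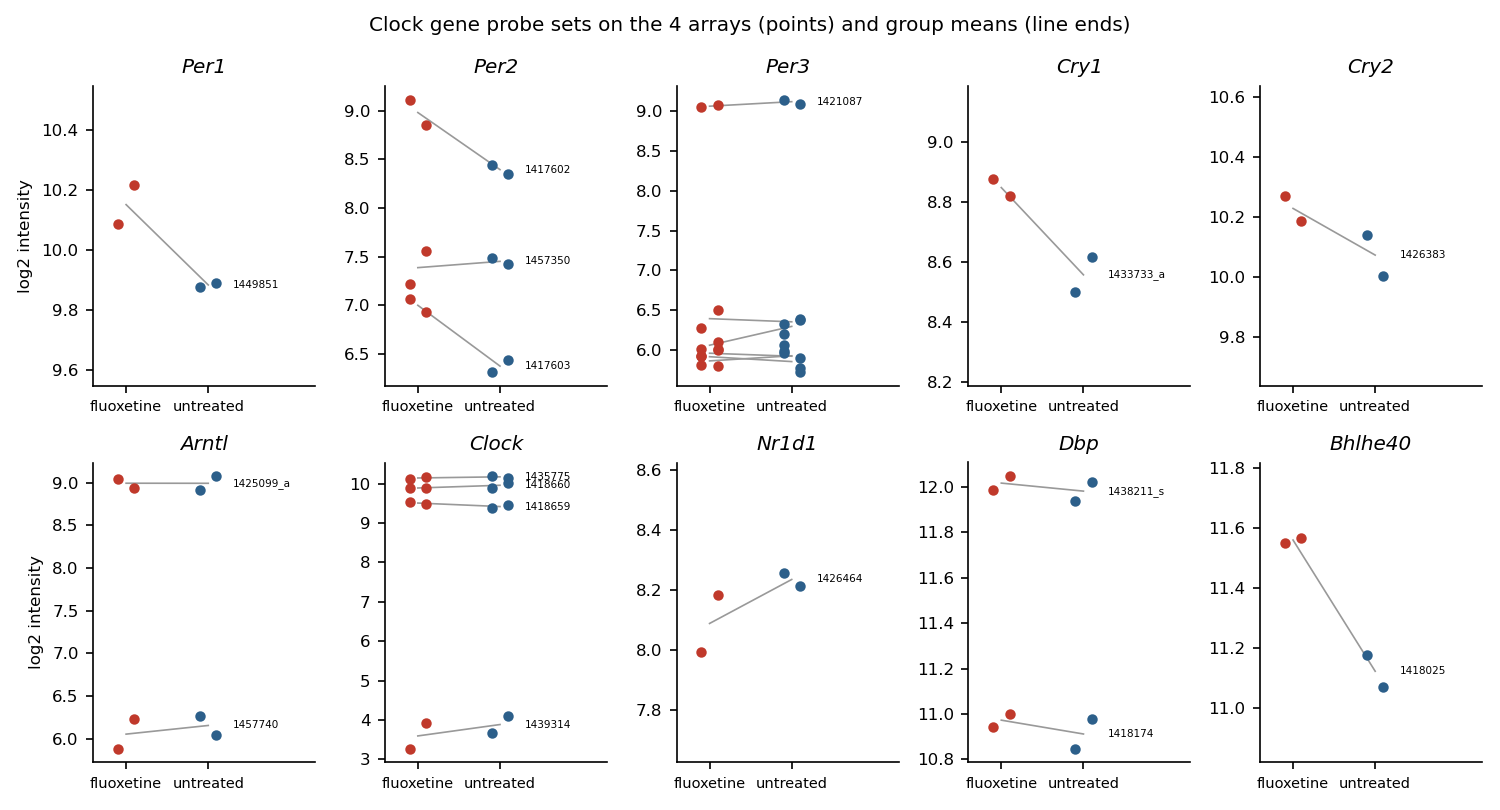
Log2 intensity of each clock gene probe set on the 2 fluoxetine arrays (red, left) and the 2 untreated arrays (blue, right), with a line between the group means and a vertical scale of its own for each gene. The gap between the nearest arrays of the groups is widest in Per1, in 2 of the 3 Per2 probe sets, in Cry1 and in Bhlhe40.

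Per2, which encodes a repressor that scaffolds the PER-CRY complex, was higher in 2 of its 3 probe sets. Its brightest probe set, 1417602_at, read 9.11 and 8.85 on the fluoxetine arrays and 8.44 and 8.35 on the untreated arrays. The lower fluoxetine array lay 0.41 above the higher untreated one, a gap wider than that between the fluoxetine duplicates. The log2 difference was 0.59 (SE 0.10, 95% interval 0.35 to 0.83), a 1.5-fold higher level, with an unadjusted p of 0.000624 and an adjusted p of 0.331 in the limma fit. A second probe set, 1417603_at, read 7.07 and 6.93 with fluoxetine and 6.31 and 6.44 without, a difference of 0.63 (SE 0.12, adjusted p = 0.331). It lies below the median level of all probe sets, 7.12. It is 1 of the 8 probe sets described below whose level cannot be told from background by the bound used there. The other probe set, 1457350_at, differed from these at 7.22 and 7.56 with fluoxetine and 7.48 and 7.42 without, where the untreated arrays fall between the fluoxetine arrays. Its difference was −0.06 (95% interval −0.37 to 0.24). The 3 probe sets thus disagree, and the interval of the third lies wholly below those of the other two. The test of that difference between probe sets was not run.

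Per1, a repressor gene that cyclic AMP induces rapidly, was read by 1 probe set at 10.09 and 10.22 on the fluoxetine arrays, against 9.88 and 9.89 on the untreated arrays. The untreated duplicates nearly coincided and both fluoxetine arrays were higher. The difference was 0.27 (SE 0.06, 1.20-fold), with an unadjusted p of 0.00425 and an adjusted p of 0.369 by limma. With any 1 array left out it ranged from 0.20 to 0.33, and the unadjusted p stayed below 0.05 each time, at 0.0494 without fluoxetine replicate 2.

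Per3, a paralog that is dispensable for core rhythm in mice, did not pass with any of its 6 probe sets. Its bright probe set, 1421087_at, read 9.05 and 9.07 with fluoxetine and 9.14 and 9.09 without, a difference of −0.06 (95% interval −0.21 to 0.10). That interval lies below the whole interval of the Per2 probe set 1417602_at. The other 5 probe sets had mean levels of 5.89 to 6.38, in the range of transcripts made outside the brain: 9 probe sets of Alb, Apoa2, Krt5, Myh6, Prm1 and Fgb averaged 0.51 to 7.14. Their differences ran from −0.24 (1442243_at, both fluoxetine arrays lower) to 0.06. In all, 8 of the 22 clock gene probe sets lay below 7.14, and by that bound their level cannot be told from background. The bound rests on 1 Prm1 probe set, 1415955_x_at, while the other Prm1 sets averaged 0.51 and 0.89. The next highest, of Apoa2, averaged 6.29, and Per2 1417603_at, at 6.69, and Per3 1460662_at, at 6.38, lay between.

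The cryptochrome genes encode the part of the PER-CRY complex that inhibits CLOCK and BMAL1 most directly. Cry1 read 8.87 and 8.82 on the fluoxetine arrays and 8.50 and 8.62 on the untreated arrays, with no overlap. Its difference was 0.29 (SE 0.08, 1.22-fold, unadjusted p = 0.00665, adjusted p = 0.387 by limma). Without fluoxetine replicate 1 the difference was 0.26 and the unadjusted p 0.057. Cry2, at 10.27 and 10.19 with fluoxetine and 10.14 and 10.005 without, also had both fluoxetine arrays on top, by 0.05 at the nearest. Its difference of 0.16 (SE 0.07, unadjusted p = 0.0556 by limma) did not pass, and its interval, −0.0049 to 0.32, takes in 0 and overlaps the Cry1 interval of 0.11 to 0.47. With 1 array left out the Cry2 difference ran from 0.087 without untreated replicate 2 (unadjusted p = 0.252) to 0.22 without untreated replicate 1 (unadjusted p = 0.0217), and it passed only in the last of these.

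Neither activator passed the test. Arntl, whose transcript runs opposite in phase to Per and Nr1d1 transcripts in mouse tissues, read 9.05 and 8.94 with fluoxetine and 8.91 and 9.08 without in its bright probe set, and the groups overlapped fully. The difference was 0.00 (SE 0.08, 95% interval −0.20 to 0.20), or −0.03 after another quantile normalization. Its dim probe set, 1457740_at, differed by −0.10 (95% interval −0.48 to 0.28). Clock, the partner of BMAL1, was read by 3 bright probe sets with differences of −0.03 (95% interval −0.16 to 0.10), −0.07 (−0.22 to 0.09) and 0.09 (−0.06 to 0.24). Probe set 1435775_at, the brightest, lay at 10.11 and 10.17 with fluoxetine and 10.19 and 10.15 without, while in 1418659_at the fluoxetine arrays exceeded the untreated ones by at least 0.03. The remaining probe set, 1439314_at, averaged 3.74 and gave −0.29 with duplicates up to 0.65 apart. All 3 bright Clock intervals and that of bright Arntl end at or below 0.24, under the lower end of the interval of either Per2 probe set that passed. The third Per2 interval, −0.37 to 0.24, overlaps all of them. The intervals of bright Arntl and Clock 1418659_at also overlap those of Per1 (0.12 to 0.42) and Cry1 (0.11 to 0.47). Those of the other bright Clock probe sets end below both.

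Nr1d1, which encodes REV-ERB alpha, the repressor of Arntl, read 7.996 and 8.18 on the fluoxetine arrays, against 8.26 and 8.22 on the untreated arrays. The groups did not overlap, with 0.03 between the nearest arrays, and the difference of −0.15 (SE 0.09, unadjusted p = 0.155 by limma) did not pass. It was −0.05 without fluoxetine replicate 1. Dbp, a direct E-box target and among the most strongly rhythmic outputs, did not pass in either of its bright probe sets. Probe set 1438211_s_at read 11.99 and 12.05 with fluoxetine and 11.94 and 12.02 without, a difference of 0.04 (95% interval −0.08 to 0.15), and 1418174_at differed by 0.06 (−0.08 to 0.20). In both, the fluoxetine arrays lie within or just beyond the untreated range. The suffix _s_at marks probes that several transcripts may share.

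Bhlhe40 had the smallest p of the set. It read 11.55 and 11.57 on the fluoxetine arrays and 11.18 and 11.07 on the untreated arrays. The fluoxetine duplicates nearly coincided, and the nearest untreated array was 0.38 lower. The mean was 11.56 ± 0.01 with fluoxetine and 11.12 ± 0.08 without (SD, n = 2 each). The log2 difference was 0.44 (SE 0.05, 95% interval 0.31 to 0.56, 1.35-fold), with an unadjusted p of 7.37e-05 and an adjusted p of 0.322 in the limma fit. It stayed between 0.38 and 0.49 with any 1 array left out. Bhlhe41, its paralog, was dim at 5.43 and 5.91 in its probe sets, with differences of −0.15 and 0.03.

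**Figure D3:**
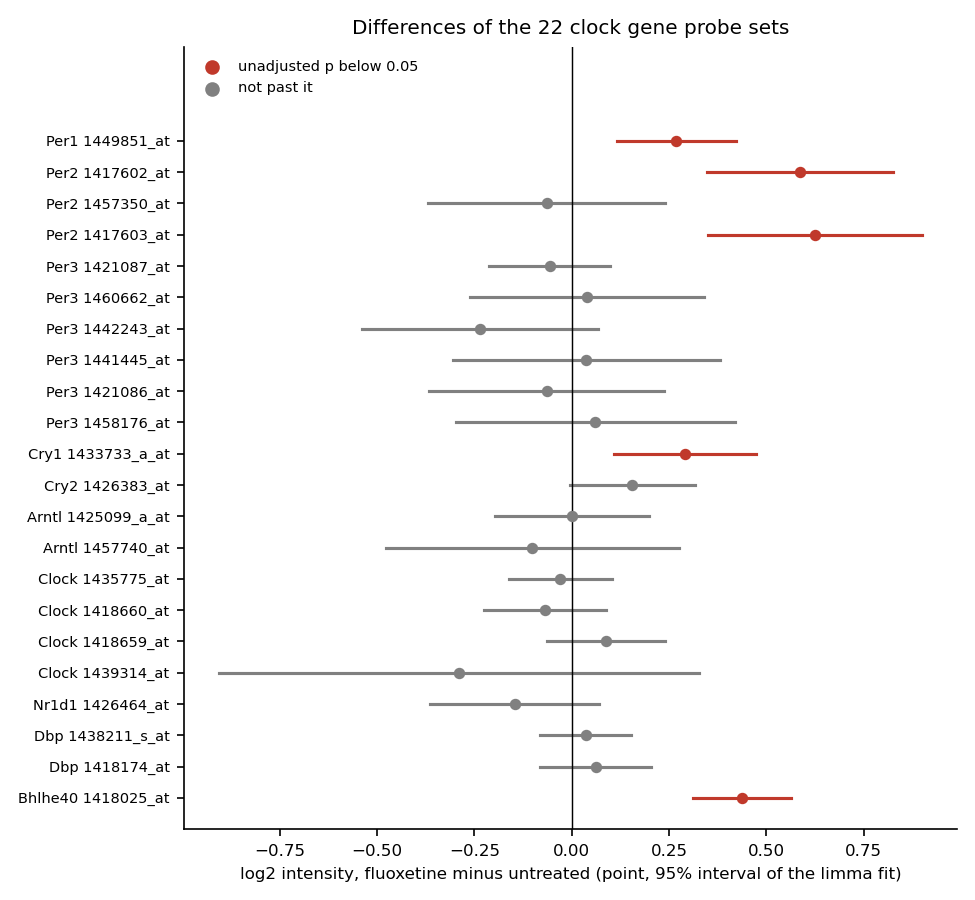
Log2 difference, fluoxetine minus untreated, of each of the 22 clock gene probe sets with the 95% interval of the limma fit. The 5 intervals in red, of Per1, 2 Per2 probe sets, Cry1 and Bhlhe40, exclude 0, and the 17 in grey take it in.

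The size of a difference was also set beside all probe sets of like brightness. In the 20 bins of level, the 95th percentile of all differences was 0.30 in the bin with a middle level of 8.52, 0.23 in that of 9.78 and 0.22 in that of 11.01. The Per2 probe set 1417602_at and Bhlhe40, with differences of 0.59 and 0.44, lay well beyond it. Per1, with 0.27, lay just beyond it, and Cry1, with 0.29, lay just below the 0.30 of the bin of 8.52. Among the 22, duplicates differed by a median of 0.10 on the fluoxetine arrays and 0.11 on the untreated arrays.

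**Figure D4:**
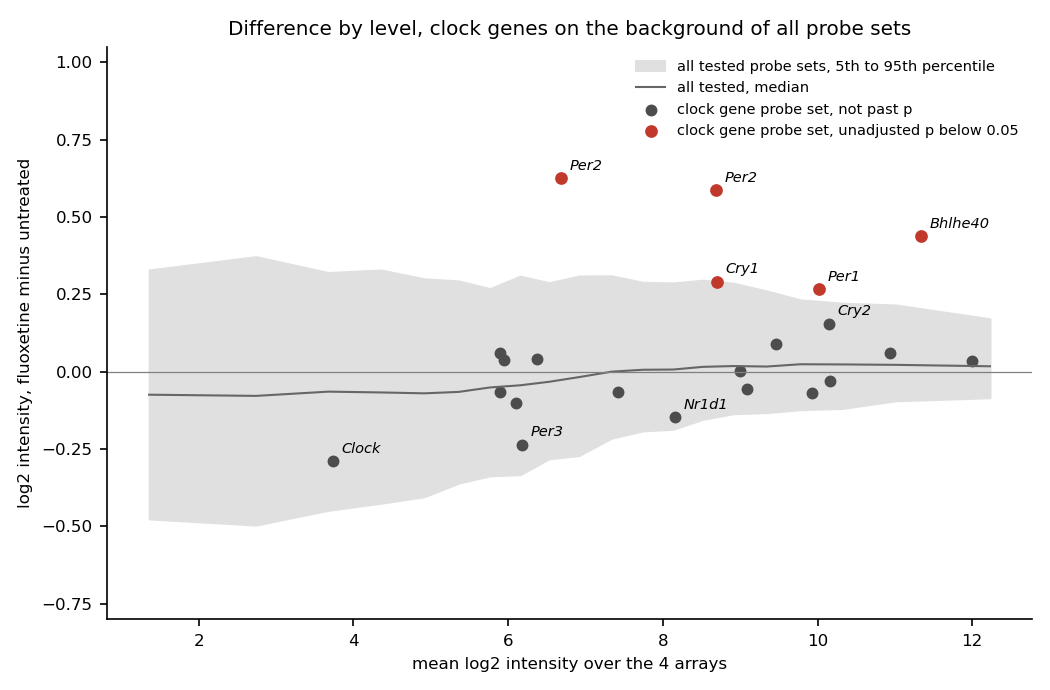
Log2 difference of the clock gene probe sets (points) against their mean log2 intensity over the 4 arrays, on the 5th to 95th percentile (grey band) and median (line) of all 34945 tested probe sets in 20 bins of level. Both higher Per2 probe sets and Bhlhe40 stand well above the band.

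The other genes of the clock loops and outputs, taken from 4 lists, gave 83 probe sets of 27 genes. Of these, 17 were higher at an unadjusted p below 0.05, 3 were lower and 63 did not pass, where 6.4% of all probe sets were higher and 3.04% lower, and 0 passed the adjustment. The 17 are 20.48% of the 83 and the 3 are 3.614%, a share near that of all probe sets. Among all probe sets above the median level, 10.04% were higher and 1.677% lower, which also bears on the separate lists below. The median difference was 0.05. In the 21 of these genes with several probe sets, 0 of the 21 brightest and 14 of the 56 dimmer probe sets were higher. These counts take in dim probe sets, unlike the 7.02% and 18.1% given above. With the lists of input genes added, 28 probe sets were higher and 3 lower, and 11 of them passed whichever array was left out: 2 each of Tsc22d3 and Gsk3b and 1 each of Nr1d2, Rorb, Usp2, Csnk1e, Cipc, Klf10 and Sik1.

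In the stabilizing loop, 6 of 14 probe sets were higher, or 42.86% against 6.4% of all, and 0 lower, against 3.04% of all (median difference 0.09). Nr1d2, the paralog of Nr1d1, read 7.79 and 7.72 on the fluoxetine arrays and 7.30 and 7.24 on the untreated arrays in 1416959_at, a difference of 0.48 (SE 0.09). Its much brighter probe set 1416958_at differed by only 0.08 (SE 0.05). Rorb, which encodes a ROR receptor, was higher in 2 of its 3 probe sets, by 0.37 and 0.35, while the brightest differed by 0.10. Rora was higher in 3 of 9, by 0.18 to 0.42, and its brightest differed by −0.01. Each of the 3 passed with only 1 of the 4 choices of array left out and none passed without the intensity trend. Without fluoxetine replicate 1 the difference of 1458129_at was 0.18 and that of 1436326_at 0.13, and without untreated replicate 1 that of 1420583_a_at was 0.11. The weaker Rorb call, 1425162_at, was lost without fluoxetine replicate 1 (0.28) or untreated replicate 1 (0.28). Of the paralogs of the activators, 0 of 4 probe sets passed, and Npas2, which can replace CLOCK in the forebrain, differed by 0.04 (SE 0.06).

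Among modifiers of the repressors and further repressors, 8 of 45 probe sets were higher, or 17.78% against 6.4% of all, and 3 lower, or 6.667% against 3.04% of all (median 0.03). The deubiquitinase gene Usp2, an E-box output that acts on clock proteins, was lower in both of its probe sets. Probe set 1417169_at read 10.09 and 10.09 on the fluoxetine arrays and 10.34 and 10.36 on the untreated arrays, a difference of −0.26 (SE 0.05, adjusted p = 0.331 by limma). The brighter 1417168_a_at differed by −0.17 (SE 0.06), and lost its call without fluoxetine replicate 2 or untreated replicate 2. Btrc, an F-box gene whose product targets PER proteins, was lower in 1 of 5 probe sets, with a difference of −0.23, and this call was lost whichever array was left out (highest unadjusted p = 0.158 by limma). Csnk1d and Csnk1e, which encode the casein kinases that phosphorylate PER proteins, were each higher in 1 probe set, by 0.31 (SE 0.10) and 0.33 (SE 0.08), and their brightest sets differed by 0.02 and 0.04. The Csnk1d call passed with only 1 of the 4 choices of array left out, and its difference was 0.16 without untreated replicate 1. The kinase gene Gsk3b was higher in 2 of 6, by 0.69 and 0.34, with its brightest at 0.03. Cipc, an inhibitor of CLOCK, was higher in its dimmest set, by 0.45, and its other sets differed by 0.08 and 0.01. Fbxw11, Fbxl21 and Sirt1 each had 1 higher probe set, by 0.34, 0.37 and 0.28. None of these calls held throughout: the differences were 0.21 for Fbxw11 without untreated replicate 1, 0.28 for Fbxl21 without fluoxetine replicate 2 and 0.15 for Sirt1 without fluoxetine replicate 1, and none of them passed there. Ciart, a repressor of the CLOCK and BMAL1 pair also called Chrono, differed by −0.02 (SE 0.07).

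Of the PAR bZIP factors and other outputs, 3 of 20 probe sets were higher, or 15% against 6.4% of all, and 0 lower, against 3.04% of all (median 0.10). Tef and Hlf, relatives of Dbp, were higher in 1 probe set each, by 0.33 (SE 0.09) and 0.31 (SE 0.09), with their brightest sets at 0.06 and 0.09. Without fluoxetine replicate 1 both calls were lost, with differences of 0.30 for Tef and 0.18 for Hlf. Klf10, a zinc-finger output of the clock, differed by 0.30 (SE 0.08). Nfil3, which competes with DBP at D-boxes, differed by 0.04 (SE 0.17), with untreated arrays at 7.09 and 7.62.

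The last lists hold genes that share the inputs of Per1. Cyclic AMP and calcium responsive genes had 4 of 12 probe sets higher (33.33%) and 0 lower (median 0.15). Glucocorticoid responsive genes had 7 of 19 higher (36.84%) and 0 lower (median 0.18). Over all probe sets, 6.4% were higher and 3.04% lower. Most probe sets of both lists lay above the median level, where 10.04% of all were higher and 1.677% lower. Sik1, a CREB target that feeds back on clock resetting, read 7.10 and 7.12 with fluoxetine and 6.31 and 6.56 without, a difference of 0.67 (SE 0.12). That probe set averaged 6.77, below the median level and the 7.14 bound for background. The other Sik1 probe set averaged 0.98, differed by 0.25 (SE 0.19) and did not pass. Crem was higher in probe set 1418322_at, by 0.33. Its brightest probe set differed by 0.18 (SE 0.09) and did not pass, and its dimmest ones by −0.38 and −0.09. Fosb and Egr1 were higher by 0.29 and 0.20, and Fos differed by 0.06 (SE 0.06). None of these 3 calls held with every array left out in turn: the Egr1 difference was 0.097 without untreated replicate 2, that of Crem 0.19 without untreated replicate 1 and that of Fosb 0.23 without fluoxetine replicate 1, and none of them passed there. Tsc22d3, a classic glucocorticoid target, was higher in its brightest set, at 11.58 and 11.48 against 11.24 and 11.21 on the untreated arrays, by 0.30 (SE 0.05). Its next brightest set was higher by 0.38, and its dimmer ones differed by 0.18 and −0.21 and did not pass. Sgk1, Errfi1, Nfkbia and Zbtb16 also had higher probe sets, by 0.18 to 0.35, while Fkbp5 and Ddit4 differed by 0.04 and 0.04 in their brightest sets. Nfkbia was higher in 1 of 5 probe sets, and its brightest differed by 0.04. Zbtb16 was higher, by 0.35, only in its dimmest probe set, with a mean of 6.51, below the 7.14 bound for background. Its brighter sets differed by 0.32 and 0.18, with groups that overlapped, and did not pass. The calls of all 4 genes were lost with some array left out, at 0.15 for Sgk1 and 0.16 for Nfkbia without fluoxetine replicate 2 and at 0.22 for Zbtb16 without fluoxetine replicate 1. The Errfi1 differences ran from 0.16 to 0.23, and each passed with 1 of the 4 choices of array left out. Fos, Fkbp5 and Ddit4 were named after their values were seen. None of these probe sets passed the adjustment over all probe sets, where the lowest adjusted p of the 6 lists was 0.331.

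**Figure D5:**
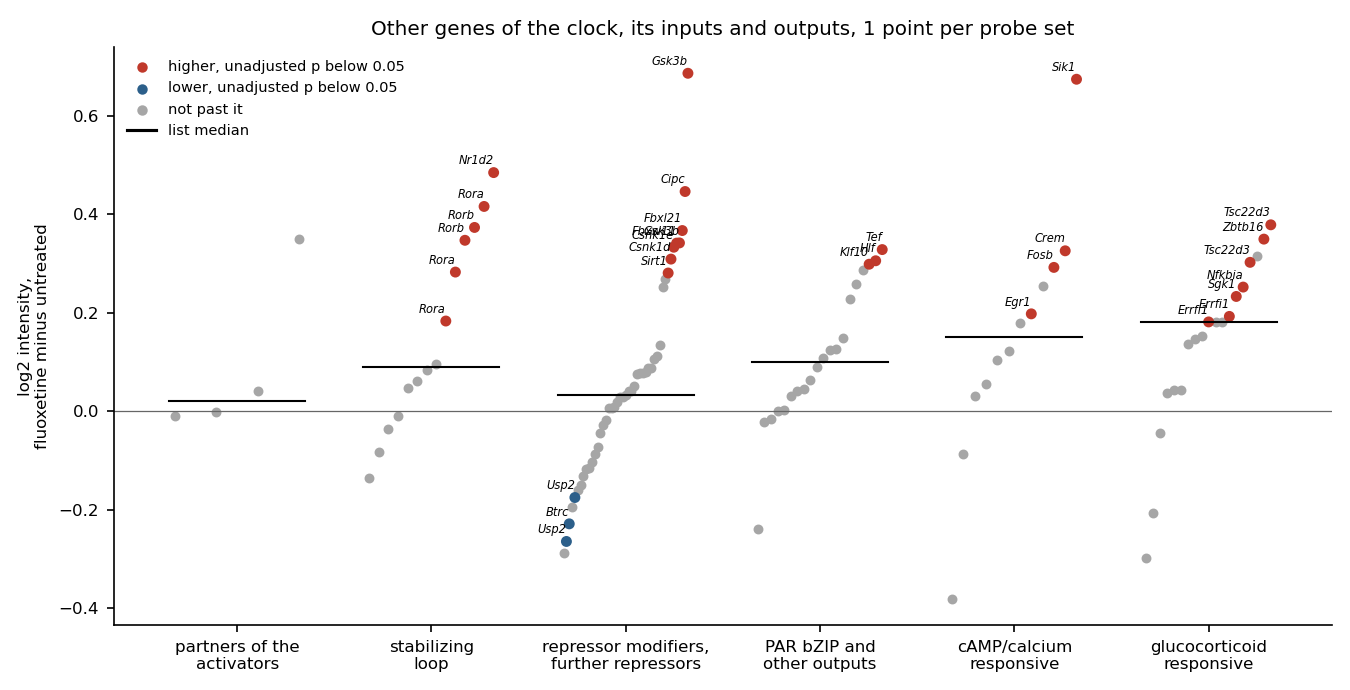
Log2 difference, fluoxetine minus untreated, of each probe set of the other clock, input and output genes, by list. Red (higher) and blue (lower) points have an unadjusted p below 0.05, grey points did not pass, and black bars are list medians. Higher probe sets occur in every list but the partners of the activators, and the lower ones belong to Usp2 and Btrc.

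The mean profile of the 22 probe sets, each centred on its own mean, was 0.00 and 0.07 on the fluoxetine arrays and −0.04 and −0.03 on the untreated arrays. Probe sets of Zscan21, Rhebl1, Bicdl1, Sox17 and Armc8 followed it most closely over the 4 arrays, with Pearson correlations of 0.997 to 0.999. Of the 12586 probe sets compared, 135 had a correlation over 0.95.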

How the data were processed

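The authors deposited log2 intensities, 1 value a probe set and array. RMA, affy and limma are named, per the submitters' processing notes, without versions. The base of the logarithm was inferred from the range of the values. Where background remains in the signal, the fold changes of dim probe sets are understated. Of 45101 probe sets, 64 array controls, 932 with several symbols and 9160 without a symbol were left out. Names came from the platform annotation, and all 22 clock gene probe sets matched a RefSeq gene by number. Fluoxetine was compared with untreated with limma 3.58.1 in R 4.3.3 (lmFit, eBayes with an intensity trend) over 34945 probe sets, two-sided, with Benjamini-Hochberg adjustment and no filter. The fit had 2 residual and 5.11 prior degrees of freedom. "Higher" and "lower" calls use an unadjusted p below 0.05, since adjustment left 1 probe set on the whole array. The code was tested on simulated data.

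The arrays correlated at 0.997 and 0.996 within groups and 0.996 to 0.997 between groups. The number of arrays limits the precision. Replicate numbers follow the order of samples and pair nothing. The submitters describe the duplicates as biological, but the labels do not say that they come from separate litters. The p-values thus describe only the spread among these arrays, which may be in part technical. The members and lists were chosen with earlier results of these data known. All member probe sets are reported. Of the other genes, fixed ones and any with an unadjusted p below 0.05 were named, and a few more as stated. The 5 probe sets most like the members were those above the median level, at least as variable as the members' mean profile and best correlated with it. Alternatives were another normalization (array medians or quantiles), no intensity trend, only probe sets above the median level, all probe sets except controls, 1 probe set per gene, and each array left out. Labelling controls and brightness within genes were looked at after values were seen.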

Additional observations from a re-analysis of the deposited data

Results flagged for a closer look

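Poly-A control transcripts, which take no part in the comparison of genes, carried a signal that differed between the groups: their 24 probe sets were higher on the fluoxetine arrays by a median of 0.24 on the log2 scale, and in 17 of the 24 both fluoxetine arrays lay above both untreated arrays. The probe sets read a few spiked RNAs repeatedly. The cause was not tested.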

How the results depend on the processing

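The count of higher clock gene probe sets was 5, or 4 where 1 of the called Per2 probe sets was not in the fit (1 probe set per gene, or only those above the median level). With an array left out it ran from 4 to 6, and 0 were lower throughout. Per1, Bhlhe40 and both higher Per2 probe sets kept their calls in every alternative that held them, and Cry1 in all but 1. The companion count of 28 higher was 18 without the intensity trend, 9 with 1 probe set per gene and 14 to 26 with an array left out. The 3 lower ones were 5 after another quantile normalization, 1 with 1 probe set per gene and 1 to 4 with an array left out. Over the whole array, 2237 higher and 1064 lower probe sets became 628 and 638 with 1 probe set per gene, 301 were lower among those above the median level, and leaving out an array gave 707 to 2326 higher and 337 to 1594 lower. The 14, 707 and 337 came without fluoxetine replicate 1, 18 higher companion probe sets without untreated replicate 1 and 1 lower without fluoxetine replicate 2. The cause was not tested. Of 64 probe sets followed, 16 changed sign under some alternative and 0 of these had passed. Arntl 1425099_a_at was −0.0080 with array medians subtracted and −0.033 after quantile normalization, where Csnk1d 1437690_x_at was −0.019. With an array left out the differences spanned −0.24 to 0.11 for Per2 1457350_at, −0.071 to 0.15 for Per3 1460662_at, −0.11 to 0.18 for Per3 1441445_at, −0.073 to 0.20 for Per3 1458176_at, −0.083 to 0.085 for Arntl 1425099_a_at, −0.27 to 0.070 for Arntl 1457740_at, −0.059 to 0.00017 for Clock 1435775_at, −0.62 to 0.037 for Clock 1439314_at, −0.0068 to 0.077 for Dbp 1438211_s_at, −0.0042 to 0.13 for Dbp 1418174_at, −0.048 to 0.13 for Csnk1e 1417175_at, −0.22 to 0.30 for Nfil3 1418932_at, −0.071 to 0.050 for Rora 1424034_at, −0.079 to 0.043 for Ciart 1435188_at, −0.041 to 0.081 for Csnk1d 1437690_x_at and −0.026 to 0.22 for Rorb 1439862_at. No paired analysis was possible because no number or label links an array of one group to an array of the other. Dim probe sets lie in the range of background, which limits what they show.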
